A study of Homo sapiens with 6 samples.

Results

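The 10 genes described here are core components of autophagy, the route by which a cell encloses part of its cytoplasm in a membrane, the autophagosome, and delivers it to the lysosome. They were taken by name from the deposited count table, in a list drawn up with earlier results of these data known: ULK1, BECN1, ATG5, ATG7, ATG9A, ATG16L1, MAP1LC3B, GABARAPL1, SQSTM1 and WIPI1, 10 of its 78932 genes. The libraries are poly(A) RNA-seq of T24, an established human urothelial carcinoma cell line, grown in medium with serum. In the control group (siNC), 3 cultures were transfected with a non-targeting siRNA, and in the other group (siTRIM28), 3 cultures were transfected with siRNA against TRIM28, a transcriptional corepressor and SUMO ligase. All 6 cultures carry the same batch label and are labelled as biological replicates 1, 2 and 3 of their group. Which of the study's siRNAs against TRIM28 the sequenced cultures received, and how long after transfection they were collected, is not given in the sources used here. A single cell line was sequenced, and the transcripts of a whole culture were counted, so fewer cells of a kind and less RNA per cell cannot be told apart. Transcript levels were measured, and neither protein, conversion of LC3 nor autophagic flux was.

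Autophagy starts when the ULK1 kinase complex is released from inhibition by nutrient signalling. It then activates the class III PI3-kinase complex built on Beclin 1 (BECN1), whose lipid product recruits WIPI proteins to the forming membrane, while vesicles carrying ATG9A supply lipid. A pair of ubiquitin-like systems, both activated by ATG7, joins ATG5 to ATG12 with ATG16L1 and attaches proteins of the ATG8 family, among them MAP1LC3B and GABARAPL1, to phosphatidylethanolamine in the membrane. Receptors such as SQSTM1 (p62) bind ubiquitinated cargo and ATG8 proteins at once and are degraded together with the cargo. In tumour cells autophagy is known both for recycling nutrients and for removing damaged organelles.

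The libraries held between 11712623 and 14018052 counts. Levels are given as CPM, counts divided by the TMM-scaled library size, and changes as log2FC, the log2 fold change of siTRIM28 over siNC. TRIM28, the targeted gene, had 1419, 1393 and 1382 counts in siNC replicates 1, 2 and 3 and 130, 96 and 109 in siTRIM28 replicates 1, 2 and 3, a log2FC of −3.54, so each library fits its label. Replicates of a group were not equally close: siNC replicates 1 and 2 and siTRIM28 replicates 2 and 3 were nearer to each other than to the remaining replicate. The chi-square per degree of freedom between their counts, near 1 for counting noise alone, was 1.08 and 1.24, against 4.44 to 6.96 for the other pairs. Whether each close pair comes from separate cultures was not tested, and the SD, standard errors and p-values here treat all 3 replicates as independent. Of 12 urothelial and epithelial markers, 7 stayed under 10 counts in every library, among them UPK2, KRT20, EPCAM and CDH1, whereas KRT8 and KRT18 were abundant. The summed level of these markers was 191 to 198 CPM in siNC and 211 to 219 in siTRIM28. Of 8 markers of other cell types, 4 stayed under 10 counts, including PTPRC and CD3E, and the summed level was 354 to 358 CPM in siNC and 346 to 371 in siTRIM28, nearly all of it from the lysosomal gene CD68. Of the tested urothelial and epithelial markers 3 of 4 were higher in siTRIM28. Of the 3 tested markers of other cell types, the collagen gene COL1A1 rose from 0.932 ± 0.265 to 3.28 ± 0.635 CPM (log2FC 1.78, edgeR adjusted p = 0.000221), the smooth muscle actin gene ACTA2 fell from 7.11 ± 0.350 to 4.81 ± 0.592 CPM (log2FC −0.56, edgeR adjusted p = 0.00645) and CD68 did not pass the test. The part of either list in the results was not tested. UPK1B, KRT20 and CD3E had no count in any library.

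After TRIM28 silencing the core autophagy genes moved in both directions. ATG9A, SQSTM1, GABARAPL1 and WIPI1 rose, ATG5 and MAP1LC3B fell, and ULK1, BECN1, ATG7 and ATG16L1 did not pass the test. After TMM scaling, counts were tested with the quasi-likelihood method of edgeR in the 18474 genes that reached 10 counts in 3 or more libraries, with Benjamini-Hochberg adjustment over all of these genes and a threshold of 0.05, and all 10 members were among the genes tested. A large share of the transcriptome differed between the groups: 41.8% of all genes tested passed the threshold, 21.3% higher and 20.5% lower, against 6 of the 10 members, 4 higher and 2 lower. Among the genes whose mean count lies in the range of the members, 54.1% passed it, so the number of members called was close to that of genes of like abundance. The median log2FC of the members was 0.21, against 0.015 over all genes tested. The groups did not overlap in 7 members, the 6 called and ULK1, where 52.0% of all genes tested show no overlap. For each of these 7 an exact two-sided permutation test gave p = 0.1, the smallest that 3 cultures against 3 can give.

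**Figure D1:**
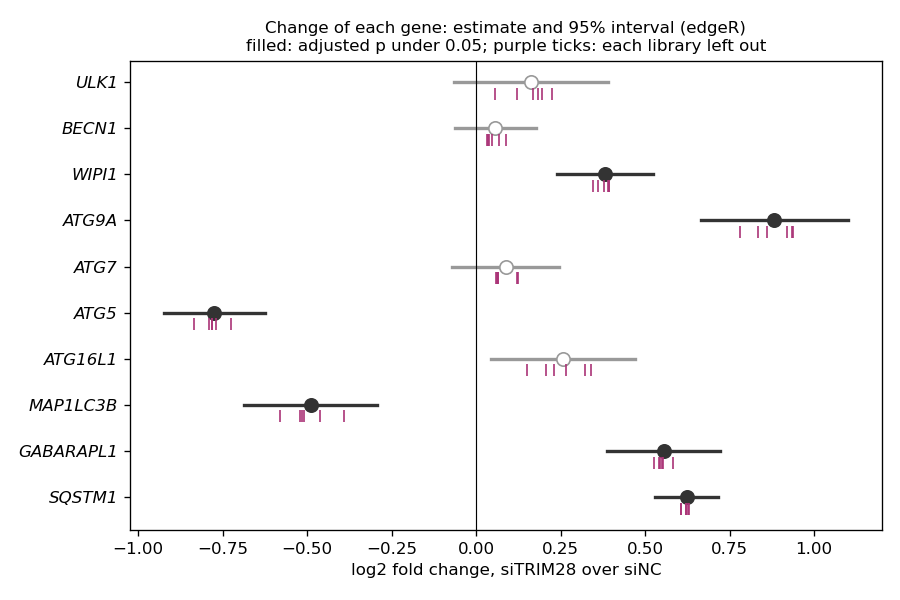
Log2FC of siTRIM28 over siNC (x axis) for the 10 core autophagy genes (y axis), with the 95% interval of the edgeR fit as a line, filled circles for genes with an adjusted p under 0.05, and a purple tick for the estimate with each of the 6 libraries left out. ATG9A (0.88) and ATG5 (−0.77) lie farthest apart, and the intervals of ULK1, BECN1 and ATG7 cross 0.

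Neither member of the initiation step passed the test. ULK1 (ENSG00000177169, chromosome 12 from 131894622 to 131921951 on the plus strand, as for all genes here in GRCh38 coordinates of the deposited table), the kinase that starts the pathway, was measured at 10.1, 9.46 and 10.2 CPM in siNC replicates 1, 2 and 3 and at 10.2, 10.6 and 12.6 CPM in siTRIM28 replicates 1, 2 and 3. The siTRIM28 values all lay above those of siNC, but replicate 1 did so only narrowly (10.21 against at most 10.19 CPM in siNC) and replicate 3 stood apart. Its log2FC was 0.16 (standard error 0.104, 95% interval −0.065 to 0.39, edgeR adjusted p = 0.237), and 0.055 without siTRIM28 replicate 3. BECN1 (ENSG00000126581, chromosome 17 from 42810134 to 42833332 on the minus strand), the scaffold of the PI3-kinase complex, had 73.3, 76.5 and 73.3 CPM in siNC and 79.6, 79.9 and 72.5 CPM in siTRIM28, with overlapping groups. Its log2FC of 0.057 has a 95% interval of −0.063 to 0.18 (edgeR adjusted p = 0.438), so a change of more than 1.13-fold upward or to less than 0.957 of the control lies outside it. The exons of BECN1 share 795 bases with CNTD1 and 300 with PSME3, both on the opposite strand. The strand setting of the counting is not given in the sources used here. PSME3 had 1368 mean counts in siNC, against 1004 for BECN1. CNTD1 has a log2FC of 0.086 and PSME3 of −0.69, and their part in the BECN1 value was not tested.

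Of the 3 other tested genes of the ULK complex, 1 passed the test. For this and the further lists, 41.8% of all genes tested passed, and 54.1% of those in the members' range of mean counts. RB1CC1, the scaffold subunit also called FIP200, rose from 221 ± 3.95 to 247 ± 8.13 CPM (mean ± SD, n = 3), a log2FC of 0.16 (edgeR adjusted p = 0.00823). This call was lost without siNC replicate 1 (adjusted p = 0.0638) and without siNC replicate 2 (adjusted p = 0.0672). ATG13 and ATG101 did not pass the test, and ULK2 had at most 2 counts in any library. Of 7 genes of the class III PI3-kinase complex and its regulators, 1 rose, 1 fell and 5 did not pass the test. UVRAG, a BECN1 partner of the later complex, had a log2FC of 0.24 (edgeR adjusted p = 0.0245), which did not pass with DESeq2 (0.152), with no filter (0.0660) or without siNC replicate 2 or 3 or siTRIM28 replicate 2 or 3 (adjusted p from 0.0619 to 0.114). RUBCN, whose protein Rubicon inhibits the UVRAG complex, fell from 24.4 ± 0.454 to 20.5 ± 0.645 CPM (log2FC −0.25, edgeR adjusted p = 0.00706, and 0.0642 with DESeq2).

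Both members that supply or mark the growing membrane rose. ATG9A (ENSG00000198925, chromosome 2 from 219219380 to 219229639 on the minus strand), a lipid scramblase carried on vesicles, had 9.43, 7.73 and 9.57 CPM in siNC replicates 1, 2 and 3 and 15.2, 16.9 and 17.2 CPM in siTRIM28 replicates 1, 2 and 3. The lowest siTRIM28 culture was above the highest siNC culture, and the gene was 1.84-fold higher (log2FC 0.88, standard error 0.0994, edgeR adjusted p = 2.72e-05). ATG9A was also among the rarest members, at 131, 107 and 122 counts in siNC, and its exons share 1833 of 4724 bases with a neighbouring protein-coding gene model of the same strand (ENSG00000284820). That gene model has a log2FC of 0.65 (edgeR adjusted p = 0.00385), so how reads were divided between both is uncertain, while both are higher in siTRIM28.

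WIPI1 (ENSG00000070540, chromosome 17 from 68420948 to 68457499 on the minus strand), which binds the lipid made by the PI3-kinase, had 17.9, 17.2 and 17.4 CPM in siNC and 22.4, 22.4 and 23.6 CPM in siTRIM28. The spread within each group was small beside the gap between the groups, with means of 17.5 ± 0.339 and 22.8 ± 0.670 CPM (± SD, n = 3). Its log2FC was 0.38 (standard error 0.0642, edgeR adjusted p = 0.000550). WIPI1 shares 828 exon bases with ARSG on the opposite strand, which has a log2FC of 0.32 (edgeR adjusted p = 0.0762), and 127 bases with a noncoding transcript that fell by 0.72 on the log2 scale. That transcript had 1786 mean counts in siNC, against 236 for WIPI1. The part of both overlaps in the WIPI1 value was not tested.

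Of 7 other tested genes of these steps, 3 rose and 1 fell, beside 41.8% of all genes tested passing the threshold. WIPI2, which recruits ATG16L1 to the membrane, rose from 12.5 ± 0.831 to 17.3 ± 0.996 CPM (log2FC 0.46, edgeR adjusted p = 0.000702), while WDR45 and WDR45B did not pass the test. Of the lipid transfer genes, ATG2A, whose protein channels lipid into the membrane, had a higher level, with a log2FC of 0.55 (edgeR adjusted p = 0.000248). VMP1, a scramblase of the endoplasmic reticulum, rose from 144 ± 1.13 to 256 ± 1.50 CPM, a log2FC of 0.83 (edgeR adjusted p = 2.78e-08). TMEM41B, a scramblase that acts beside VMP1, fell instead (log2FC −0.32, edgeR adjusted p = 0.00824, and 0.0529 with DESeq2). ATG9B, the paralog of ATG9A, had at most 4 counts in any library.

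**Figure D2:**
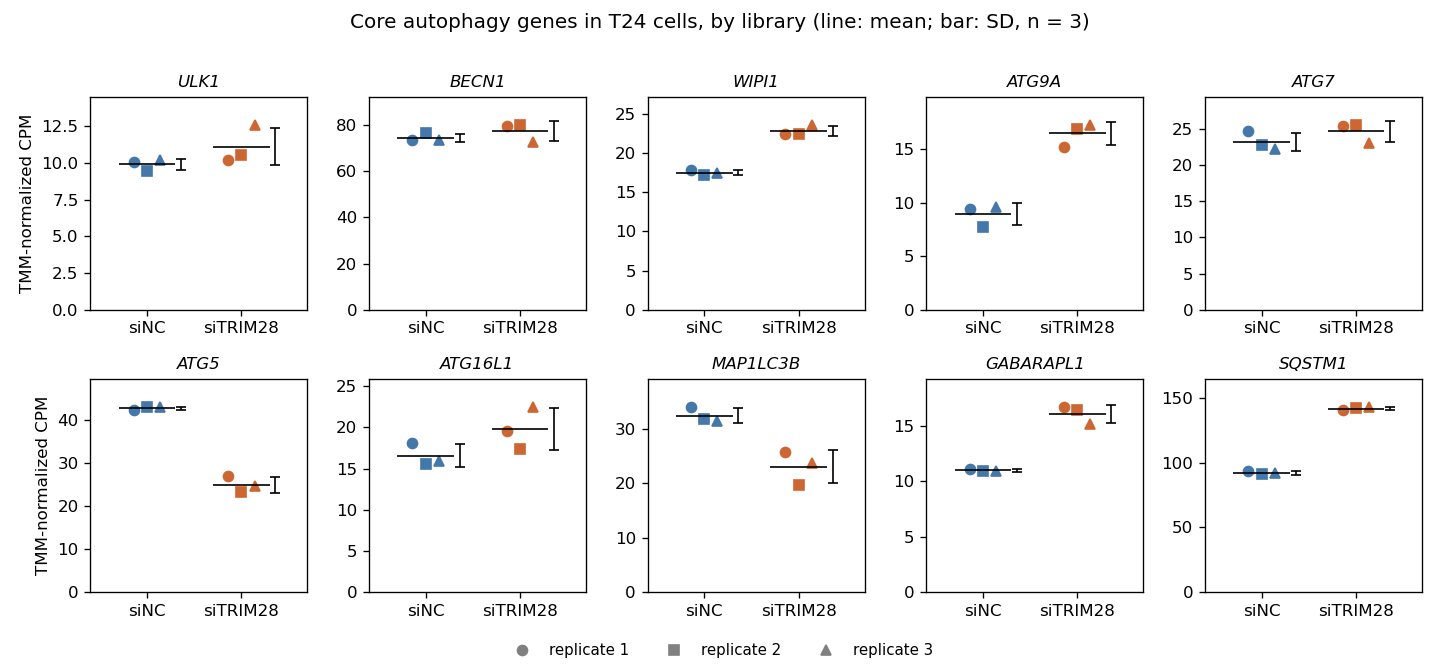
TMM-normalized CPM (y axis, from 0) of the 10 core autophagy genes in the 3 siNC and 3 siTRIM28 libraries (x axis), with replicates 1, 2 and 3 as circles, squares and triangles, the mean as a line and the SD as a bar. All siTRIM28 points lie above the siNC points for ATG9A, WIPI1, GABARAPL1, SQSTM1 and, narrowly, ULK1, and below them for ATG5 and MAP1LC3B.

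Within the conjugation machinery the members did not move together. ATG5 (ENSG00000057663, chromosome 6 from 106045423 to 106325791 on the minus strand), which is joined to ATG12 to form the ligase for ATG8 proteins, had 42.3, 42.9 and 43.0 CPM in siNC replicates 1, 2 and 3 and 26.9, 23.1 and 24.7 CPM in siTRIM28 replicates 1, 2 and 3. The siTRIM28 cultures all lay below the siNC cultures, at 0.585 of the control level (log2FC −0.77, standard error 0.0680, edgeR adjusted p = 3.71e-06). Leaving out any single library, the value stayed between −0.84 and −0.72. No other annotated exon of GENCODE v29 shares bases with those of ATG5. ATG7 (ENSG00000197548, chromosome 3 from 11272309 to 11554988 on the plus strand), the activating enzyme of both systems, had 24.6, 22.8 and 22.2 CPM in siNC and 25.4, 25.5 and 23.0 CPM in siTRIM28. These groups overlapped, and the log2FC of 0.088 has a 95% interval of −0.070 to 0.25 (edgeR adjusted p = 0.363). ATG7 shares 1596 exon bases with VGLL4 on the opposite strand (log2FC 0.40), and the part of this overlap was not tested.

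ATG16L1 (ENSG00000085978, chromosome 2 from 233210051 to 233295674 on the plus strand), which holds the ATG5 and ATG12 conjugate at the membrane, had 18.1, 15.6 and 15.9 CPM in siNC and 19.6, 17.4 and 22.5 CPM in siTRIM28. siNC replicate 1 lay above siTRIM28 replicate 2, so the groups overlapped. The log2FC was 0.26 (standard error 0.0976, 95% interval 0.044 to 0.47), and the adjusted p of 0.0529 (edgeR) missed the threshold narrowly. It passed in 8 of 15 alternatives, among them upper-quartile scaling (0.0324), total-count scaling (0.0457), no filter (0.0404) and the close replicates summed (0.0383), and without siNC replicate 1 (0.0450), siTRIM28 replicate 1 (0.0249) or siTRIM28 replicate 2 (0.0150). The value over all alternatives ran from 0.15 without siTRIM28 replicate 3 to 0.34 without siTRIM28 replicate 2, and the adjusted p from 0.0150 to 0.233.

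The ratio of ATG5 to ATG16L1 within a library, which does not depend on the scaling, was 2.33, 2.75 and 2.70 in siNC replicates 1, 2 and 3 and 1.38, 1.33 and 1.10 in siTRIM28. It fell in every siTRIM28 culture, by a mean difference of −1.03 in log2 ratio (exact permutation test, two-sided, p = 0.1, and 0.133 adjusted over 4 ratios). Of the 8 other conjugation genes, 1 rose, 4 fell and 3 did not pass the test, beside 41.8% of all genes tested passing it. ATG12, the partner joined to ATG5, had a log2FC of 0.11 (edgeR adjusted p = 0.223). ATG3, the enzyme that passes ATG8 proteins to lipid, fell from 279 ± 2.66 to 239 ± 6.98 CPM (log2FC −0.22, edgeR adjusted p = 0.000798). ATG4B and ATG4C, proteases that trim ATG8 proteins, fell, with log2FC of −0.65 and −0.37 (edgeR adjusted p = 0.00227 and 0.00856). ATG10, the enzyme that passes ATG12 to ATG5, had a log2FC of −0.38 (edgeR adjusted p = 0.000664), but its exons share 374 bases with the ribosomal protein gene RPS23 on the opposite strand, which has −0.35, so the ATG10 value is uncertain. ATG16L2, a paralog of ATG16L1, rose from 39.0 ± 1.62 to 68.5 ± 0.430 CPM (log2FC 0.81, edgeR adjusted p = 6.05e-07).

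The ATG8 members went opposite ways. MAP1LC3B (ENSG00000140941, chromosome 16 from 87383953 to 87404779 on the plus strand), which encodes the LC3 protein used to mark autophagosomes, had 34.0, 31.8 and 31.5 CPM in siNC replicates 1, 2 and 3 and 25.7, 19.7 and 23.7 CPM in siTRIM28 replicates 1, 2 and 3. All siTRIM28 cultures were below all siNC cultures, with replicate 2 the lowest, and the log2FC was −0.49 (standard error 0.0899, edgeR adjusted p = 0.00101). It ran from −0.58 without siTRIM28 replicate 1 to −0.39 without siTRIM28 replicate 2 and stayed past the threshold in each case. The exons of MAP1LC3B share 150 bases with FBXO31 on the opposite strand (log2FC −0.13, edgeR adjusted p = 0.497). The part of this overlap was not tested. GABARAPL1 (ENSG00000139112, chromosome 12 from 10212458 to 10221799 on the plus strand), of the GABARAP branch of the family, had 11.1, 11.0 and 10.9 CPM in siNC and 16.7, 16.5 and 15.2 CPM in siTRIM28. It rose 1.47-fold, with a very small spread in siNC (11.0 ± 0.0952 CPM, mean ± SD, n = 3) and a log2FC of 0.55 (standard error 0.0764, edgeR adjusted p = 0.000129).

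The ratio of MAP1LC3B to GABARAPL1 counts within a library was 3.06, 2.89 and 2.89 in siNC and 1.54, 1.19 and 1.56 in siTRIM28, a mean difference of −1.04 in log2 ratio (exact permutation test, two-sided, p = 0.1, and 0.133 adjusted over 4 ratios). GABARAP and GABARAPL2, the other expressed genes of the family, had 35.3 ± 0.288 and 35.2 ± 1.10 CPM in siNC and 35.1 ± 2.78 and 35.7 ± 4.07 in siTRIM28. Neither passed the test, with 95% intervals of the log2FC of −0.16 to 0.14 and −0.16 to 0.20. The exons of GABARAP share 691 of 2266 bases with a protein-coding gene model of the same strand. That model has a log2FC of −0.13 (edgeR adjusted p = 0.218), so how reads were divided between both is uncertain. MAP1LC3A had no count, and MAP1LC3C at most 2. MAP1LC3B2, whose coding sequence is nearly identical to that of MAP1LC3B, had at most 10 counts in any library, and GABARAPL3, a copy of GABARAPL1, at most 3. Reads that match both a member and its copy may have been left out of the counting, so these counts do not show how many there were. MAP1LC3B was thus the only LC3 gene of the 4 listed with over 10 counts in any library.

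MAP1LC3B is also the member whose 3′ UTR carries a match to the seed of siTRIM28-2, one of the study's siRNAs against TRIM28. The seed is the stretch near the 5′ end of an siRNA guide, and its pairing in a 3′ UTR can lower transcripts that were not targeted. The heptamer that pairs with this seed, TCCTGTC, was searched in the longest 3′ UTR of each tested gene in GENCODE v29. It occurs in the 3′ UTR of 1 of the 10 members and of 18.0% of 12119 tested genes. The site in MAP1LC3B lies in the last exon, inside the 3′ UTR, on chromosome 16 of GRCh38 from 87404461 to 87404487 on the plus strand, and is shown 5′ to 3′ with the heptamer in capitals because MAP1LC3B fell.
MAP1LC3B 3′ UTR site: ttaaaggagtTCCTGTCacctgctccc
Of all tested genes with the heptamer, 42.2% were lower at an adjusted p under 0.05 (edgeR), against 22.9% of genes without it, whose 3′ UTRs are shorter (median 1181 against 2807 bases). The heptamer was chosen because earlier results of these same data tie it to lower levels, so this difference is not independent of that choice. Of the 45 other tested autophagy genes 10 hold the heptamer (22.2%), of which BNIP3, ATG16L2 and WIPI2 were called higher, TMEM41B and ATG4B lower and 5 neither. The part of this site in the MAP1LC3B value was not tested, and the seeds of the study's other siRNAs were not searched here. ATG5, the other member that fell, has no such heptamer in its 3′ UTR of 2246 bases.

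Promoters of the members were searched in the RefSeq sequence of build GRCh38.p14 from 250 bases before to 50 bases after each gene's start, where all 10 had an entry. CACGTG, the core of the element bound by the lysosomal and autophagy regulator TFEB, reads the same on both strands and was in the window of none of the members, against 7.26% of 35116 promoters. TGACNNNGC, the core of the antioxidant response element, was searched on both strands and found in 1 member, MAP1LC3B, against 13.3% of all promoters. This stretch lies upstream of the start that RefSeq gives for MAP1LC3B, which is inside the longer span of the gene in the deposited table, on chromosome 16 from 87392280 to 87392309 on the plus strand, and is shown as the single match, with the motif in capitals.
MAP1LC3B promoter: gcgagtcaccTGACCAGGCtgcgggctgag
Sites beyond this window were not searched, and the absence of these letters says nothing of binding elsewhere.

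SQSTM1 (ENSG00000161011, chromosome 5 from 179806398 to 179837218 on the plus strand), which encodes the receptor p62, gave the lowest adjusted p of the members. It had 1301, 1262 and 1173 counts in siNC replicates 1, 2 and 3 and 1972, 1685 and 1695 in siTRIM28 replicates 1, 2 and 3, or 93.7, 91.2 and 92.0 CPM against 141, 142 and 143 CPM. Both groups were tight, with means of 92.3 ± 1.28 and 142 ± 1.18 CPM (± SD, n = 3). The gene rose 1.54-fold (log2FC 0.62, standard error 0.0422, edgeR adjusted p = 5.06e-07), and the value stayed between 0.61 and 0.63 with each library left out. Its exons share 1582 bases with MRNIP on the opposite strand, which has 256 mean counts in siNC and a log2FC of 0.75. Another 105 bases are shared with MGAT4B, also on the opposite strand. MGAT4B has 768 mean counts in siNC and a log2FC of 0.32 (edgeR adjusted p = 0.000560). The part of these overlaps in the SQSTM1 value was not tested.

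The ratio of SQSTM1 to MAP1LC3B counts, a receptor against the ATG8 protein that it binds, was 2.76, 2.87 and 2.92 in siNC replicates 1, 2 and 3 and 5.48, 7.23 and 6.03 in siTRIM28 replicates 1, 2 and 3. The groups were far apart, with a mean difference of 1.12 in log2 ratio (exact permutation test, two-sided, p = 0.1, and 0.133 adjusted over 4 ratios). The fourth ratio, ULK1 to BECN1, was 0.138, 0.124 and 0.139 in siNC and 0.128, 0.132 and 0.173 in siTRIM28, with overlapping groups (exact permutation test, two-sided, p = 0.8).

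**Figure D3:**
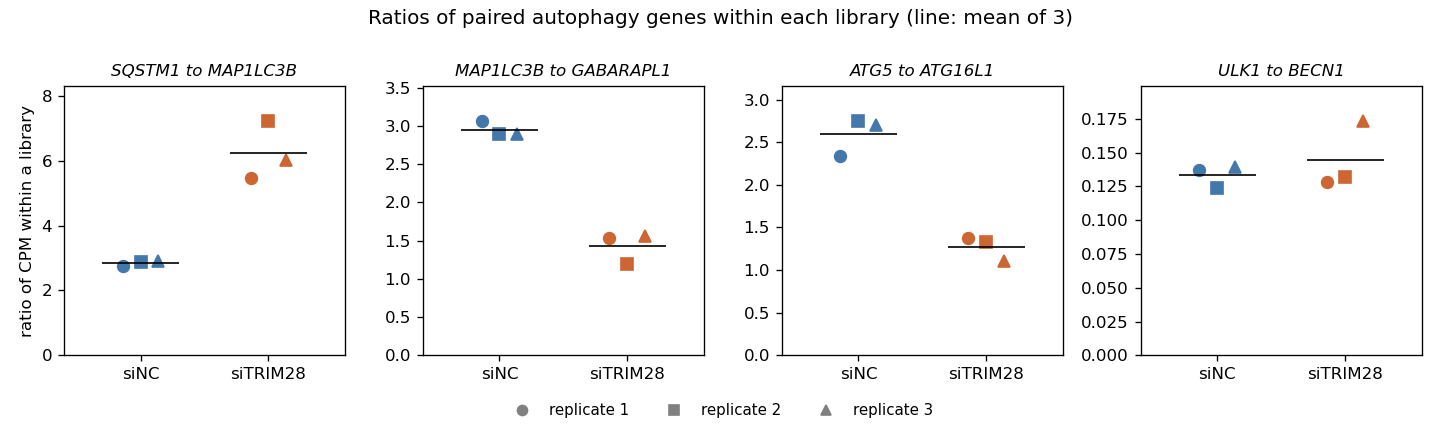
Ratios of CPM within each library (y axis, from 0) for 4 pairs of core autophagy genes in siNC and siTRIM28 (x axis), with replicates 1, 2 and 3 as circles, squares and triangles and the mean of 3 as a line. The groups are apart for SQSTM1 to MAP1LC3B, MAP1LC3B to GABARAPL1 and ATG5 to ATG16L1 and overlap for ULK1 to BECN1.

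The other receptors were divided as well: of 12, 4 rose, 2 fell and 6 did not pass the test. Of all genes tested, 41.8% passed, and 54.1% of those in the members' range of mean counts. BNIP3, a receptor for mitochondria, rose from 264 ± 7.55 to 518 ± 13.0 CPM (log2FC 0.97, edgeR adjusted p = 1.32e-08), and its relative BNIP3L rose by 0.50 on the same scale (edgeR adjusted p = 1.51e-05). OPTN and TAX1BP1, which bind ubiquitinated cargo as SQSTM1 does, rose, with log2FC of 0.26 and 0.23 (edgeR adjusted p = 0.000127 and 0.00115). CALCOCO2, the receptor NDP52 known for the removal of bacteria and mitochondria, fell from 189 ± 5.79 to 129 ± 6.82 CPM (log2FC −0.55, edgeR adjusted p = 4.04e-06). NBR1, which acts beside SQSTM1, fell by a smaller amount (−0.22, edgeR adjusted p = 0.00445). Receptors that share the binding of ubiquitinated cargo were therefore found on both sides.

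Of the genes for fusion with the lysosome, all 6 that were tested passed the threshold, 3 higher and 3 lower. By comparison, 41.8% of all genes tested passed it, and 54.1% of those in the members' range of mean counts. The 3 that fell encode SNARE proteins of the autophagosome. STX17 fell from 11.1 ± 0.679 to 5.81 ± 1.10 CPM (log2FC −0.94, edgeR adjusted p = 0.000167) and YKT6 from 50.2 ± 0.821 to 31.6 ± 4.55 CPM (−0.67, edgeR adjusted p = 0.000113). SNAP29 had −0.16 (edgeR adjusted p = 0.0434), a call that was lost in 10 of 15 alternatives, among them each fit that leaves out a library other than siTRIM28 replicate 3. The 3 that rose encode the tether EPG5, the adaptor PLEKHM1 and the GTPase RAB7A. Their log2FC were 0.40, 0.49 and 0.21 (edgeR adjusted p = 0.00196, 0.00884 and 0.0104). RAB7A did not pass without siNC replicate 2 (0.0575) or siTRIM28 replicate 3 (0.0567). VAMP8 had at most 5 counts in any library.

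Of the 51 other autophagy genes in the 8 lists, 45 were tested, of which 13 rose, 11 fell and 21 did not pass the threshold. By comparison, 41.8% of all genes tested passed it, and 54.1% of those in the members' range of mean counts. The median log2FC of the 45 genes was 0.062, against 0.015 over all genes tested. The calls of 18 of these 24 genes held in all 15 other fits, and the 6 lost in at least 1 fit are RB1CC1, UVRAG, RUBCN, TMEM41B, SNAP29 and RAB7A. With the close replicates summed, RB1CC1, UVRAG, SNAP29 and RAB7A were not called. Of the genes not called, PIK3C3, the catalytic subunit of the PI3-kinase, passed without siTRIM28 replicate 3 (adjusted p = 0.0414) and with upper-quartile (0.0271) or total-count scaling (0.0393). RETREG1, a receptor for the endoplasmic reticulum, passed without siTRIM28 replicate 1 (0.0149), and TOLLIP, a receptor for ubiquitinated cargo, without siNC replicate 3 (0.0235) and with no filter (0.0325). Genes of both signs stood in the class III PI3-kinase, lipid transfer, conjugation, receptor and fusion lists. Several of the called genes share exon bases with another gene on the opposite strand, as ATG10 does. Among those that fell, this gene was lower as well for RUBCN (FYTTD1, log2FC −0.88), ATG4B (THAP4, −0.45), ATG3 (SLC35A5, −0.64), STX17 (an antisense transcript, −1.09) and SNAP29 (PI4KA, −0.46). It was lower where the called gene rose for ATG16L2 (FCHSD2, −0.35) and VMP1 (PTRH2, −0.74). For NBR1, which fell, the overlapping gene was higher (a noncoding transcript, 1.12). For TAX1BP1 and BNIP3L, which rose, an overlapping gene was higher as well (an antisense transcript, 0.61, and a pseudogene, 0.83). RPS23, which overlaps ATG10, and FYTTD1, THAP4 and FCHSD2 each had more counts in siNC than the gene that they overlap. The other overlapping genes of this paragraph had fewer, such as SLC35A5 (98.3 mean counts, against 3760 for ATG3) or PI4KA (530, against 1011 for SNAP29). The part of these overlaps in the values was not tested.

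**Figure D4:**
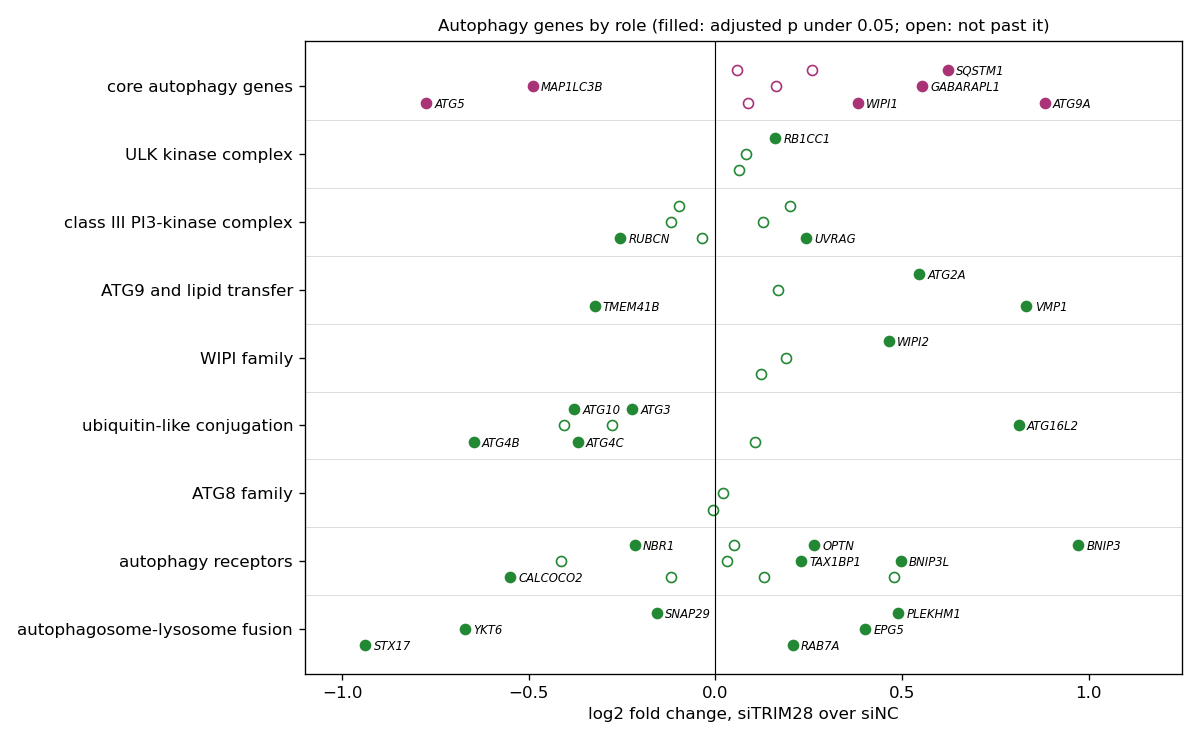
Log2FC of siTRIM28 over siNC (x axis) for the 10 core autophagy genes (purple) and the 45 tested genes of 8 further lists (green), by role (y axis), with filled and named circles for genes with an adjusted p under 0.05 in edgeR's test and open circles for the others. Filled circles lie on both sides of 0, from STX17 (−0.94) to BNIP3 (0.97).

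Levels of different members were compared per length, as CPM per kilobase of the gene length in the deposited table. In siNC the order from the highest was SQSTM1 (12.2 ± 0.170, mean ± SD, n = 3), BECN1 (11.6 ± 0.287), ATG5 (7.56 ± 0.0615), MAP1LC3B (6.44 ± 0.269), WIPI1 (5.14 ± 0.0997), ATG16L1 (2.74 ± 0.229), GABARAPL1 (2.71 ± 0.0235), ATG7 (2.63 ± 0.144), ATG9A (1.89 ± 0.217) and ULK1 (1.30 ± 0.0516). ATG16L1, GABARAPL1 and ATG7 did not differ beyond the range of their 3 libraries, whereas the other neighbours in this order did not overlap. In siTRIM28 the order changed in the middle: WIPI1 (6.70 ± 0.197) stood above MAP1LC3B (4.57 ± 0.610) and ATG5 (4.41 ± 0.336), and GABARAPL1 (3.98 ± 0.200) overlapped ATG5. ATG9A (3.48 ± 0.229) came to overlap ATG16L1 (3.28 ± 0.420), with ATG7 (2.79 ± 0.163) below and overlapping ATG16L1. SQSTM1 (18.9 ± 0.156) stayed highest, BECN1 (12.1 ± 0.650) next and ULK1 (1.46 ± 0.168) lowest. The level of SQSTM1 was 9.12 to 9.74 times that of ULK1 in the siNC libraries and 11.5 to 13.9 times in the siTRIM28 libraries. The deposited length of each member exceeds its longest coding transcript, for BECN1 with 6414 against 2112 bases, so levels per length depend on the length chosen. With the longest coding transcript of the GENCODE v29 basic set instead, BECN1 (35.2 ± 0.872) stood above SQSTM1 (30.9 ± 0.430) in siNC, and ATG9A stood below ATG7 in siTRIM28 (4.09 ± 0.268 against 4.97 ± 0.290).

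**Figure D5:**
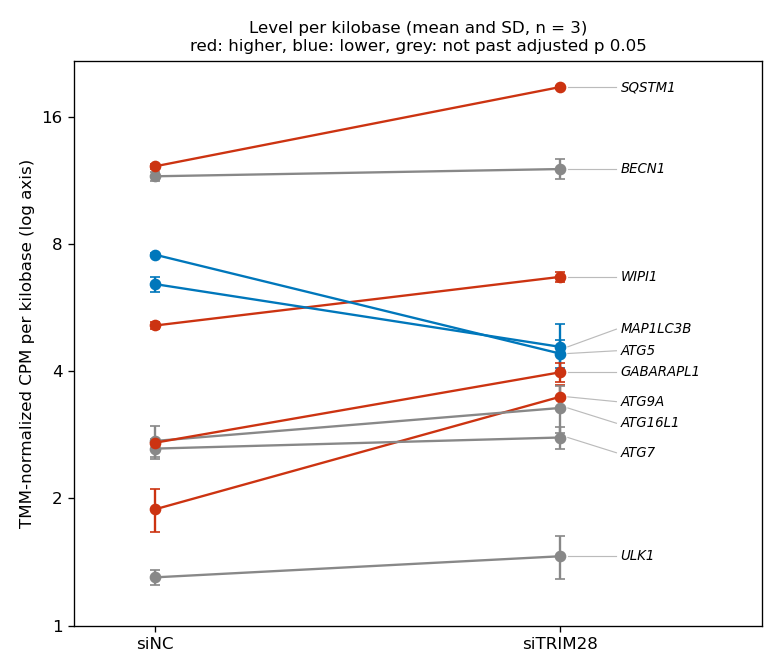
Level of the 10 core autophagy genes per kilobase (y axis, TMM-normalized CPM per kilobase, log axis) in siNC and siTRIM28 (x axis), as mean and SD of 3 libraries, in red for genes that rose, in blue for those that fell and in grey for those not past the threshold. ATG5 and MAP1LC3B cross the line of WIPI1 from above, from 7.56 ± 0.0615 and 6.44 ± 0.269 to 4.41 ± 0.336 and 4.57 ± 0.610.

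ATG9A was the called member with the largest change, and its pattern over the 6 libraries was most like those of SCAMP1-AS1 (Pearson r = 0.999), the gene model ENSG00000305433 (r = 0.999) and TEN1-CDK3 (r = 0.998), among 12827 genes with a mean of at least 50 counts. These values are a description over 6 libraries in 2 groups, and 956 genes had an r above 0.95, so many transcripts are nearly as like it.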

How the data were processed

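For 6 T24 libraries the authors deposited counts, not normalized, on 78932 genes of GRCh38 together with a length for each gene. The submitters' processing notes name fastp 0.23.1, STAR 2.7.6a and featureCounts. The annotation release, the strand setting and the handling of duplicates are not given in the sources used here. Per the labels, libraries were made from poly(A) RNA with a stranded kit. A second deposited table holds RPKM of the genes that the authors chose as differentially expressed and was not used. No aligned reads were reprocessed.

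The 18474 genes that reached 10 counts in 3 or more libraries were tested with edgeR 4.0.16 in R 4.3.3 (TMM scaling, quasi-likelihood fit with condition alone, Benjamini-Hochberg adjustment). Standard errors are log2FC over the root of the F statistic, and 95% intervals use the fit's degrees of freedom. Members and within-library ratios were permuted exactly over the 6 libraries on log2 CPM (prior count 2). Library totals of 11712623 to 14018052 counts limit precision, and intervals are for the difference between groups, judged by the spread between these 6 libraries. The labels call the replicates biological but do not describe separate cultures further, so p-values set the difference between groups against the spread between these libraries alone. Alternatives were 3 other scalings (RLE, upper quartile, total count), DESeq2 1.42.0, limma-voom (limma 3.58.1), other filters, a replicate block, each library left out, close replicates summed, an adjusted p under 0.01 and, chosen after seeing the data, another gene length. The fit was also run on simulated independent libraries, with 200 of 18474 genes changed by 0.8 on the log2 scale. The fit recovered 194 of these genes, with 5 false calls. The simulation had no close pairs of replicates and far fewer changed genes than the data, so it cannot check the p-values given here.

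All members are named, as are other autophagy genes of the lists with an adjusted p under 0.05 and TRIM28. Genes of the lists named without a call, the overlapping genes and the markers were chosen to account for the lists or for a member's value. The members, the lists and the heptamer were chosen with earlier results of these data known. GENCODE v29 gave exons and 3′ UTRs, and RefSeq gave promoters. Python 3.11.15, pandas 2.3.3, scipy 1.17.1 and matplotlib 3.10.9 were used for tables and figures.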

Additional observations from a re-analysis of the deposited data

How the results depend on the processing

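ATG9A, SQSTM1, GABARAPL1, WIPI1, ATG5, MAP1LC3B and TRIM28 kept their direction and their call in all 15 other fits, and ULK1, BECN1 and ATG7 stayed positive and not called. ATG16L1 was called in 8 of the 15, so the count of members called was 6 or 7 throughout. The median log2 fold change of the members ran from 0.14 without siTRIM28 replicate 3 to 0.27 without siTRIM28 replicate 2. The count of all genes called ran from 5393 (adjusted p under 0.01) to 8018 (no filter) over the other settings and from 6367 to 8252 with a library left out, and that of other autophagy genes from 20 to 25. Upper-quartile scaling raised the share of higher calls from 51.1% to 56.6%. The ULK1 to BECN1 difference in log2 ratio ran from −0.034 (without siTRIM28 replicate 3) to 0.18 with a library left out, a change of sign whose cause was not tested. With the length of the longest coding transcript, the log2 ratio of SQSTM1 to BECN1 levels went from 0.079 to −0.19 in siNC and from 0.64 to 0.38 in siTRIM28, since this length shortens BECN1 more. Deviations of same-numbered libraries of both groups correlated at r = 0.0523, −0.0118 and 0.0374 for replicates 1, 2 and 3, and not every library correlated best with its own number, so the numbers are not taken as pairs. With the replicate number as a block, 7 members, 7910 genes and 25 other autophagy genes were called, and ATG16L1 had an adjusted p of 0.0357. Genes under about 10 counts, such as ULK2 and MAP1LC3A, could not be compared at this depth.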
